A study of Mus musculus with 12 samples.

Results

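The E proteins, the ID proteins, TAL1 and LYL1 form a network of basic helix-loop-helix factors, and the TET2 sites at their 8 genes in mouse blood cells are described here. The genes are Tcf3, Tcf4 and Tcf12 (E proteins), Id1, Id2 and Id3 (ID proteins), Tal1 and Lyl1, out of 21887 protein-coding genes in the annotation. A site was counted for one of these genes if its midpoint lay inside the gene, or if one of the gene's ends was the nearest of all protein-coding gene ends and lay within 100 kb. This gave 6 sites of 6895 in the list of AML cells and 22 sites of 18822 in the list of myeloid cells.

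TET2 chromatin immunoprecipitation sequencing, which locates the DNA fragments that an antibody to TET2 recovers, was done in 2 kinds of cultured mouse cells, with a rabbit polyclonal antibody to the N-terminal part of TET2. The AML cells (acute myeloid leukemia) had the genotype Npm1+/cA; Fl3+/ITD, without or with Tet2-/-, and no transgene. The myeloid cells were immortalized blood cells transduced with the retroviral transgene MigR1-AML1-ETO, with Tet2fl/fl or Tet2-/-, so all of them carried AML1-ETO. Both cultures grew in stem cell factor (50 ng/ml), interleukin 3 (10 ng/ml) and interleukin 6 (10 ng/ml). Each cell type had 2 TET2 libraries from cells without a Tet2 deletion, 2 from Tet2 knockout cells, 1 IgG and 1 input library. The authors deposited 1 list of sites per cell type with positions only. No library has a value of its own, the depth is unknown, and neither the loss of TET2 signal in the knockout nor any replicate error can be read from the lists. Intervals below cover counting error over sites, and comparisons are between 2 lists.

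E proteins bind the E-box sequence CANNTG as dimers, either with each other or with tissue-specific partners such as TAL1 and LYL1. ID proteins have a helix-loop-helix but no basic region, so they capture E proteins in dimers that do not bind DNA. In blood, TAL1 and an E protein assemble with LMO2, LDB1 and a GATA factor, TAL1 is required for blood formation, and LYL1 partly replaces it in adult stem cells. Human TAL1 and LYL1 were found through translocations in T cell leukemia, and the human AML1-ETO fusion protein binds E proteins.

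TET2 sites lay at 4 of the 8 genes in AML cells and at 7 of the 8 in myeloid cells. By the same rule, 19.8% of all protein-coding genes were reached by the AML list and 42.0% by the myeloid list. Both lists had a site at Tcf12, Id1, Id2 and Lyl1, and 17.7% of all genes had sites in both lists. Tcf4, Id3 and Tal1 had myeloid sites and no AML site, and Tcf3 had no site in either list. The median over the 8 genes was 0.5 AML sites and 3.0 myeloid sites, against 0.0 in each list over all genes. The 6 AML sites have an exact Poisson 95% interval of 2.20 to 13.1 and the 22 myeloid sites one of 13.8 to 33.3. In proportion to their territory, the sequence that the rule assigns to a gene, these genes would hold 4.18 AML sites and 11.76 myeloid sites. The myeloid count was 19 without 3 sites inside the gene Nfix that were counted for Lyl1. With all annotated genes competing for sites, noncoding ones included, it was 12. No interval or territory value is given for either count. In that last setting Id1 and Id2 had no AML site, and Id2 had no myeloid site. Id2 also had no AML site with a limit of 20 or 50 kb, and no myeloid site with 20 kb.

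**Figure D1:**
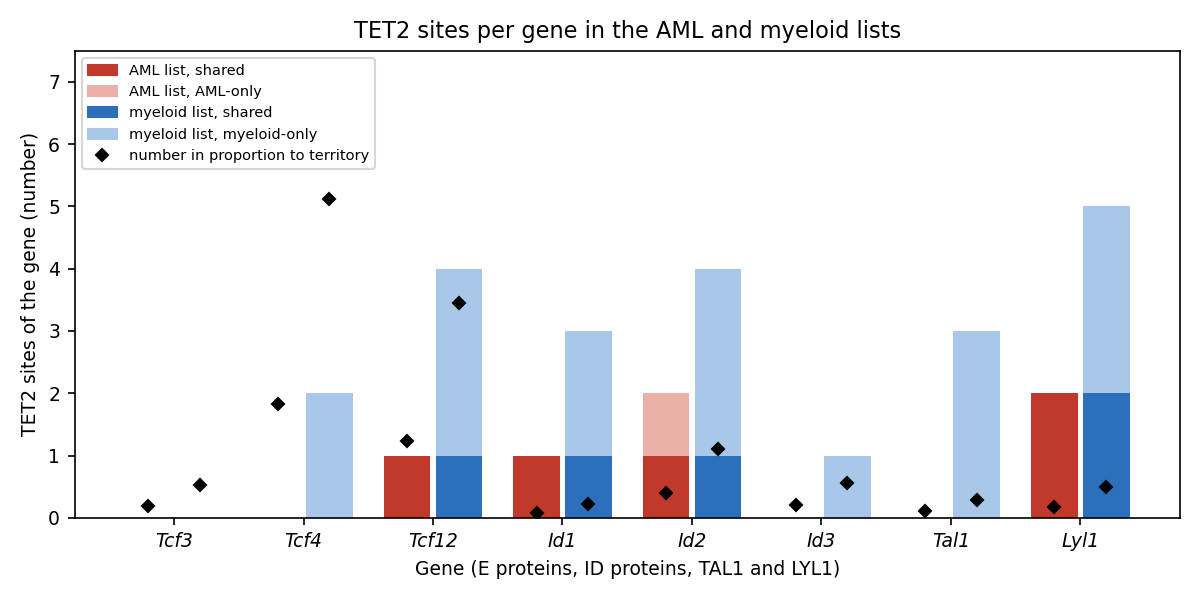
Bars give the number of TET2 sites per gene, AML list left and myeloid list right of each gene, with shared sites in dark and sites of 1 list in light colour. Diamonds mark the number in proportion to the gene's territory; Lyl1 had 5 myeloid sites, or 2 without those inside Nfix, and Tcf4 with 2 lay below its diamond at 5.117.

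Of the 6 AML sites, 5 overlapped a myeloid site by at least 1 bp (83.3%, exact Clopper-Pearson 95% interval 35.9 to 99.6), against 71.4% of all AML sites. The same 5 pairs made up 22.7% of the 22 myeloid sites (7.82 to 45.4), against 26.2% of all myeloid sites. Both intervals include the share of the whole list. The pairs overlapped by 610 bp at Tcf12, 966 bp at Id1, 675 bp at Id2, and 668 and 708 bp at Lyl1. Their midpoints were 76, 7, 37, 216 and 152 bp apart in the same order. The 1 AML-only site was at Id2, and the 17 myeloid-only sites were spread over all 7 genes with a myeloid site.

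The members had too few unshared sites for a test of single genes. Genes with at least 5 unshared sites were compared between the lists by Fisher's exact test (two-sided, Benjamini-Hochberg adjusted), and 3 of 452 such genes were called (0.664%). None of the 8 genes had that many unshared sites, so none entered this test. With every gene of at least 1 unshared site tested, 3 of 8679 were called (0.0346%) and 0 of the 7 members tested. Their lowest unadjusted exact p was 0.395, at Id2 with 1 AML-only and 3 myeloid-only sites (adjusted exact p = 1). No member could have been called: even 4 unshared sites, the most of any member, all in the AML list would have given an exact p of 0.000194, or 0.337 after adjustment.

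Lyl1 had sites in both cell types over its start. LYL1 is the close relative of TAL1, and its gene lies on chromosome 8 from 84701423 to 84704716 (mm10). It had 2 AML sites, at 84701070 to 84701738 and 84703276 to 84703984, and both were shared. It had 5 myeloid sites, and 3.39% of all genes had at least that many. Without 3 sites inside Nfix it had 2, and 19.5% of all genes had at least 2. The first of the 5 spanned 84701070 to 84702170 and the second 84703173 to 84704391, each containing the AML site whole. The first AML site had its midpoint at -53 bp relative to the RefSeq start of Lyl1, and the second had it 2.17 kb after the start, inside the gene but 4 bp nearer to Nfix. The other 3 myeloid sites were myeloid-only and lay inside Nfix, a gene of the nuclear factor I family whose annotated end overlaps that of Lyl1 by 5 bp. They were counted for Lyl1 because its end was nearer by 4 bp (2739 against 2743 bp for the first of them), and without them Lyl1 had 2 AML and 2 myeloid sites. The last 2 of them were 41 and 795 bp from the long noncoding gene G430095P16Rik. With all annotated genes competing, Lyl1 had 2 AML and 3 myeloid sites. A further site between Trmt1 and Lyl1, present and shared in both lists, was 1.36 kb from Lyl1 in the AML list and 1.33 kb in the myeloid list, and was nearer to Trmt1.

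Tal1 had sites in the myeloid list alone, and these included a site at each of its starts. TAL1, also called SCL, is a factor of blood stem cells and of red cell and megakaryocyte formation, and its gene lies on chromosome 4 from 115056426 to 115071755. The site at 115056361 to 115057014 had its midpoint 261 bp after the first RefSeq start. The site at 115057484 to 115058141 was centred 1 bp from the second start, which lies inside the gene. The last site, at 115074655 to 115075318, lay 18.6 kb downstream of the first start and 3.23 kb past the end of the gene, between Tal1 and Pdzk1ip1. Mouse Tal1 is known to have a blood stem cell enhancer downstream of its last exon, and whether this site lies on it was not tested. The territory of Tal1 gives 0.102 AML sites and 0.286 myeloid sites, so 0 AML sites is near the value for its size and 3 myeloid sites is above it. The nearest AML site was 95.3 kb from Tal1, at Cmpk1. A further myeloid-only site (115047632 to 115048339), between Stil and Tal1, was 8.44 kb from Tal1 but 4.78 kb from Stil. It was counted for Stil.

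The sequences of the starts under these sites are shown because they are the promoters on which the lists differ or meet. Each is the RefSeq window (GRCm38.p6, the chromosome coordinates of mm10) from 250 bases before to 50 after a start, read along the gene. Capitals mark matches on either strand to the letters of E proteins (CANNTG), of GATA factors (AGATAA and also TGATAA), of RUNX factors (TGTGGT and also TGCGGT) and of ETS factors (CCGGAA and also AGGAAG).
Lyl1 (chr8:84701207-84701506, plus strand): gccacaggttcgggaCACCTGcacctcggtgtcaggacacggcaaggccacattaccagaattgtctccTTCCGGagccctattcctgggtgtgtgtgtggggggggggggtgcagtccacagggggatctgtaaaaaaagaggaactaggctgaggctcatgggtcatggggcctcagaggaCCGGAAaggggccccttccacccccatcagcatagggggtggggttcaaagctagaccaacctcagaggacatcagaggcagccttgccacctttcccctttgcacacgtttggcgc
Tal1 first start (chr4:115056176-115056475, plus strand): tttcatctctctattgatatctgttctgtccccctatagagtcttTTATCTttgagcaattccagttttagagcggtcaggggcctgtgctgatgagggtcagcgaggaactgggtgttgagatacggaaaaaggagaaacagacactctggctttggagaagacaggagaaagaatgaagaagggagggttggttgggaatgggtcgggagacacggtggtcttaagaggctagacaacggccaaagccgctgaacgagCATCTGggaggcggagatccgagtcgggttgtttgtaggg
Tal1 second start (chr4:115057561-115057860, plus strand): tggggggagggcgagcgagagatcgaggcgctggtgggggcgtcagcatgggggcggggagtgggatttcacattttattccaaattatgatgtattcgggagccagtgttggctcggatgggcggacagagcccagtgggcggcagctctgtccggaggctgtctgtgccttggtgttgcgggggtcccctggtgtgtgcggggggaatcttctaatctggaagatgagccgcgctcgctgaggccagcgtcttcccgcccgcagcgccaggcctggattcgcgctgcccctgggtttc
Tcf12 first start (chr9:72111770-72112069, minus strand): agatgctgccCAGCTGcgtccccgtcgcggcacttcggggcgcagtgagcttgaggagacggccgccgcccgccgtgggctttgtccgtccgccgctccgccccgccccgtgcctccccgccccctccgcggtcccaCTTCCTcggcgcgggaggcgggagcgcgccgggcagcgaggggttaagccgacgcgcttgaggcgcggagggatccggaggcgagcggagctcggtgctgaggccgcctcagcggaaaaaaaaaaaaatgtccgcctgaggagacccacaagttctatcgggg

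The Lyl1 window lay whole inside a site of each list (300 of 300 bases). The windows of the second Tal1 start and of the first Tcf12 start lay whole inside a myeloid site, and that of the first Tal1 start had 114 bases in one, with no base of the 3 in an AML site. Lyl1 had 1 E-box, CACCTG (on the other strand CAGGTG, which 20.2% of 32851 promoter windows hold), and 2 matches to CCGGAA (14.9% of windows). The first Tal1 start had 1 E-box, CATCTG, and 1 match to AGATAA, written TTATCT (11.2% of windows), and the second had no match to any motif searched. Tcf12 had 1 E-box, CAGCTG (16.3% of windows), and 1 match to AGGAAG, written CTTCCT (35.4%). CANNTG was in 72.3% of windows, so an E-box is common at this length. The 4 windows held no match to TGATAA (in 9.05% of all windows), to TGTGGT (in 16.8%) or to TGCGGT (in 6.45%). They also held none to the C/EBP letters TTGCGCAA (in 0.183%) and TTGCATAA (in 0.743%). Matches to CAGCTG and CAGGTG are also matches to CANNTG, and CATATG, the other E-box searched, was in 3.91% of windows and in none of the 4.

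CG dinucleotides, the target of DNA methylation, numbered 7 in the Lyl1 window, 11 and 22 at the first and second Tal1 starts and 41 at the first Tcf12 start. The median over all windows was 7.0. The 1 window under AML and myeloid sites had the median number, and the fully covered windows under myeloid sites alone had more. Windows of these genes touched by no site, given below, held from 0 to 45, and a link between CG number and sites was not tested. Of the 6 member genes with a window in the table (all but Tcf4 and Id1), 1 had it touched by an AML site and 3 by a myeloid site, against 1.94% and 20.3% of the 17492 protein-coding genes with a window. The windows of Tcf3, Id2 and Id3, with 25, 21 and 19 CG dinucleotides, were touched by no site of either list. Neither were those of the second Tcf12 start, with 45, and of the third, with 0.

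Among the E proteins, Tcf12 carried most of the sites. TCF12, also called HEB, is an E protein of T cell and other precursors, and its gene lies on chromosome 9 from 71844252 to 72111893, read toward lower coordinates. Its 1 AML site (72088679 to 72089359) lay in the gene body 22.8 kb after the first start and was shared with the myeloid site at 72088749 to 72089442. The myeloid list had 3 further sites there. One at 72111569 to 72112214 covered the first start, with its midpoint at -72 bp. One lay upstream (72132964 to 72133607, midpoint at -21.5 kb from the start) and one deep in the gene (71980384 to 71981110, 131 kb after the first start). The counts of 1 and 4 were close to the 1.226 and 3.444 that the long territory of Tcf12 (366 kb) gives.

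Tcf3, which encodes the E12 and E47 proteins of B cell formation (chromosome 10, 80409541 to 80433976), had 0 AML and 0 myeloid sites. Its territory of 56.3 kb gives 0.188 and 0.529 sites, and 0 sites is near both values. The nearest AML site was 261 kb away, at Mob3a. The nearest myeloid site (80407371 to 80408033) was 1.84 kb from Tcf3 but 0.881 kb from Uqcr11, a gene of the respiratory chain, and was counted there.

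Tcf4, which encodes E2-2, the E protein of plasmacytoid dendritic cells, was the largest of the genes, and its counts were below the values for its territory. It lies on chromosome 18 from 69343429 to 69687967, and its nearest protein-coding neighbours are Mc2r, 914 kb to one side, and Ccdc68, 237 kb to the other. It had 0 AML sites (1.821 in proportion to a territory of 545 kb) and 2 myeloid sites (5.117, with an exact Poisson 95% interval of 0.242 to 7.22 around the 2). One (69575251 to 69575883) lay in the gene body, 112 kb from the nearer end. The other (69781869 to 69782607) lay outside, 94.3 kb from the gene, and both were myeloid-only. The outer site was 2.46 kb from the long noncoding gene Gm31502, and with all annotated genes competing Tcf4 had 1 myeloid site. The next site out, in the myeloid list, was 118 kb from the gene and so beyond the limit of 100 kb. The nearest AML site was 512 kb away.

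**Figure D2:**
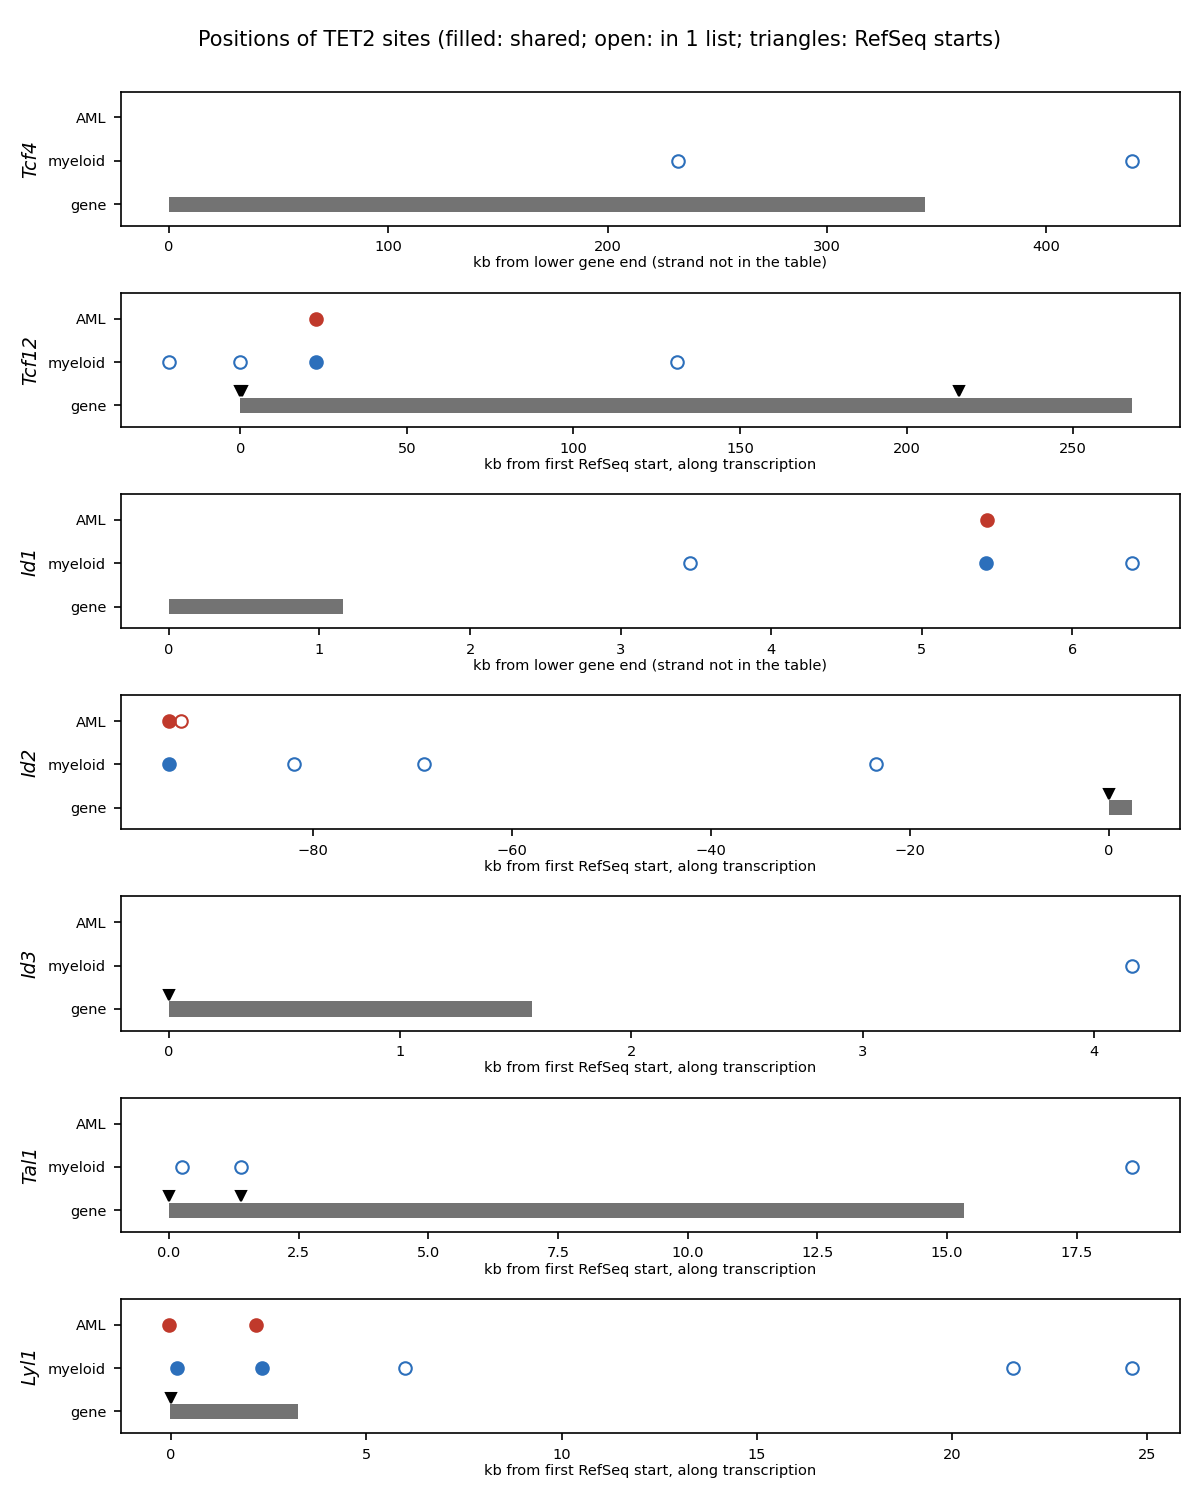
Positions of site midpoints along each gene with a site, in kb, with AML sites above myeloid sites and the gene as a grey bar. Filled points are shared, open points are in 1 list, and triangles are RefSeq starts. The sites of Id1, Id2 and Id3 (3 AML and 8 myeloid) lie beside the gene and not on it, at genes of 1.16 to 2.29 kb. The sites of Tal1 and Lyl1 include their starts, and the difference was not tested.

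No site lay inside or within 1 kb of any ID gene. Id1, Id2 and Id3 had 3 AML sites and 8 myeloid sites together, and 0 of each were inside a protein-coding gene or within 1 kb of an end of one. Tal1 and Lyl1 had 2 AML and 8 myeloid sites, of which 1 and 3 lay within 1 kb of a gene end. Over the 8 genes, ends of protein-coding genes held 1 of 6 sites in AML cells (16.7%, 0.421 to 64.1) and 4 of 22 in myeloid cells (18.2%, 5.19 to 40.3), against 8.82% and 22.6% of the whole lists. Intergenic sites were 50.0% at the 8 genes in the AML list (11.8 to 88.2) and 50.0% there in the myeloid list (28.2 to 71.8), against 46.0% and 35.6% of the lists. All 4 intervals over the 8 genes include the value of the list. The whole lists also hold 544 AML and 1102 myeloid sites that the rule gives to no gene, all of them intergenic. Among assigned sites alone, 9.57% of AML sites and 24.0% of myeloid sites were at gene ends, which the intervals also include. The intergenic share of assigned sites was not computed.

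**Figure D3:**
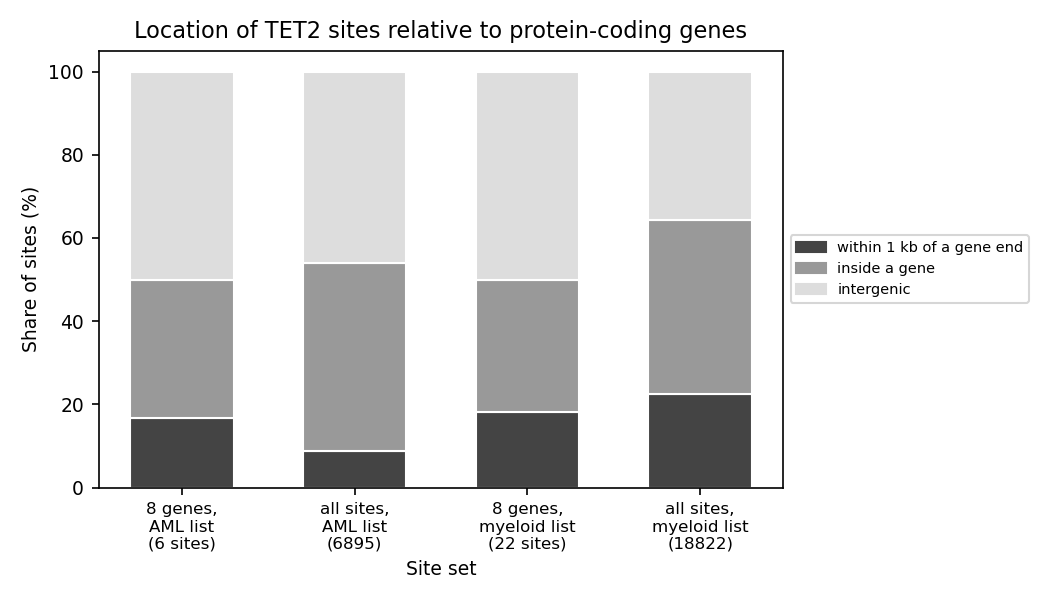
Stacked bars give the share of sites (%) at gene ends (no more than 1 kb away), inside genes or intergenic, counting protein-coding genes alone, for the 8 genes beside all sites of each list. The 8 genes had 50.0% intergenic sites in both lists, from only 6 AML and 22 myeloid sites.

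At Id1 the sites formed a group beside the gene. ID1 responds to bone morphogenetic protein signals and holds back differentiation, and its gene is short (chromosome 2, 152736251 to 152737410). The 1 AML site (152741203 to 152742169) lay 4.28 kb from the gene, toward Cox4i2, and was shared. The myeloid list had 3 sites there, at 152739170 to 152740257, 152741124 to 152742234 and 152742323 to 152742967. They spanned 3.80 kb, and the last pair were 89 bp apart. The last was 154 bp from the AML site without overlap and became shared when sites no further than 500 bp apart were counted so. The territory of Id1 (23.2 kb) gives 0.078 AML and 0.218 myeloid sites. The AML site was 966 bp wide, above the 95th percentile of the AML list (890 bp), and the first 2 myeloid sites, at 1087 and 1110 bp, were above that of the myeloid list (1030 bp). The first of these joined 2 overlapping deposited sites. Such width was not particular to Id1, since the shared myeloid sites of Lyl1 were 1100 and 1218 bp wide. The AML site of Id1 and its last 2 myeloid sites were nearer to the pseudogene Gm14162 than to Id1. With all annotated genes competing Id1 had 0 AML sites and 1 myeloid site.

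Id2 had sites in both lists at a long distance upstream. ID2 is required for natural killer and other innate lymphoid cells, and its gene lies on chromosome 12 from 25093799 to 25096092, with its start at the upper coordinate. The 2 AML sites lay 93.2 and 94.5 kb upstream, at 25188993 to 25189659 (AML-only) and 25190219 to 25190901 (shared). The AML-only site was 494 bp from the nearest myeloid site, and it too became shared when a gap of up to 500 bp was allowed. The 4 myeloid sites lay 23.4, 68.8, 81.9 and 94.4 kb upstream, at 25119109 to 25119916, 25164573 to 25165280, 25177653 to 25178327 and 25190153 to 25190894, and only the last was shared. Both AML sites and all myeloid sites but the nearest lay inside the long noncoding gene Gm36287, and the shared pair and the AML-only site lay inside Gm36496 as well. All were nearer to the end of a noncoding gene than to Id2. With a limit of 50 kb Id2 kept 0 AML sites and 1 myeloid site, and with all annotated genes competing it kept 0 of each.

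The sites upstream of Id2 went on past the limit. No other protein-coding gene lies between Id2 and Rnf144a, 1211 kb away, and this stretch held 11 AML sites and 18 myeloid sites. Of these, 6 were shared, 5 were AML-only and 12 myeloid-only. In the AML list 8 of the 11 lay within 300 kb of Id2, and in the myeloid list 13 of the 18 did. The median distance from Id2 was 186 kb in the AML list and 181 kb in the myeloid list. The first AML site beyond the limit was a shared one at 159 kb, and the first myeloid site was a myeloid-only one at 113 kb. The AML-only sites lay 93.2, 169, 186, 293 and 1111 kb from Id2, and the last of these was within 99.7 kb of Rnf144a.

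**Figure D4:**
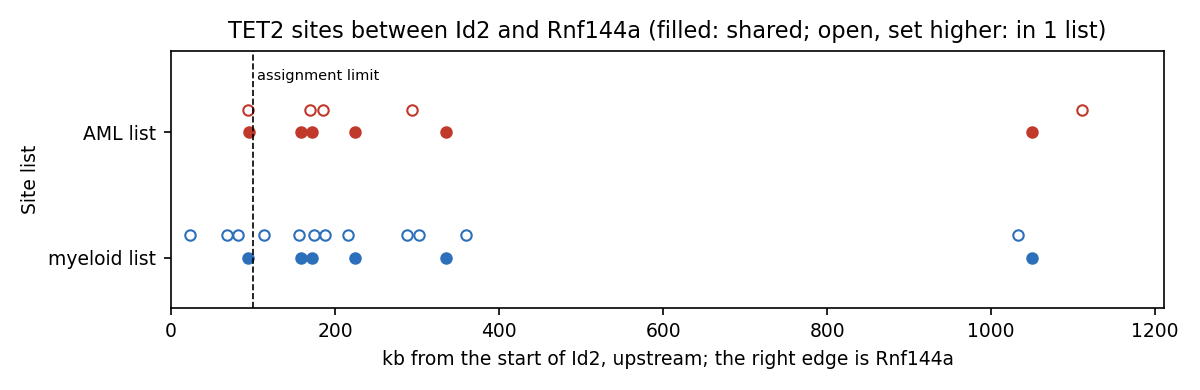
Midpoints of TET2 sites in the stretch from the start of Id2 (0) to Rnf144a (right edge), in kb, AML list above myeloid list, shared sites filled and sites of 1 list open and set slightly higher. The 11 AML and 18 myeloid sites are gathered in the part nearer to Id2, with 3 and 5 beyond 300 kb, and the dashed line is the assignment limit of 100 kb.

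Id3 had 1 site, in the myeloid list alone. ID3 acts downstream of antigen receptors in lymphocytes, and its gene lies on chromosome 4 from 136143822 to 136145392. The site (136147621 to 136148349) lay 4.16 kb after the start and 2.59 kb past the end of the gene. The nearest AML site was 32.5 kb away and belonged to E2f2. The territory of Id3 (60.2 kb) gives 0.201 AML and 0.566 myeloid sites.

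Genes of the proteins that assemble with this network were also described, beside genes of similar factors of other tissues, with no test of the difference between these lists. Of 16 partner genes, 6 carried sites in AML cells (37.5%) and 13 in myeloid cells (81.2%), against 19.8% and 42.0% of all genes. Their median territory was 118 kb, against 49.5 kb over all genes, so they have more room for a site. They held 10 AML sites (exact Poisson 95% interval 4.80 to 18.4), against 7.60 in proportion to territory, and 41 myeloid sites (29.4 to 55.6), against 21.35. All 10 AML sites were shared (Clopper-Pearson interval 69.2 to 100%), against 71.4% of all AML sites, which that interval includes. Gata2, a stem cell factor that joins TAL1 on DNA, had 2 AML and 7 myeloid sites. Ssbp2, which stabilizes LDB1, had 1 and 8, Cbfa2t3, the ETO2 corepressor of TAL1 complexes, had 2 and 5, and Lmo2, the bridge between TAL1 and LDB1, had 2 and 5. Lmo4 (0 and 3) and Ssbp4 (0 and 2) had myeloid sites alone. Of 17 other class II helix-loop-helix genes, dimer partners of E proteins in muscle, nerve and other tissues, the AML list had a site at 1 (Neurod1, with 1) and the myeloid list at 1 (Ascl2, with 1), or 5.88% in each list. In proportion to territory the 17 genes would hold 4.75 AML and 13.33 myeloid sites. The exact Poisson 95% interval of 1 site is 0.0253 to 5.57, which includes the AML value and not the myeloid value. Their median territory was 60.6 kb, against 58.2 kb for the 8 genes. Tal2, which is also a class II gene, was counted with the partner genes and not here. It had 2 AML sites, both shared, and 3 myeloid sites.

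**Figure D5:**
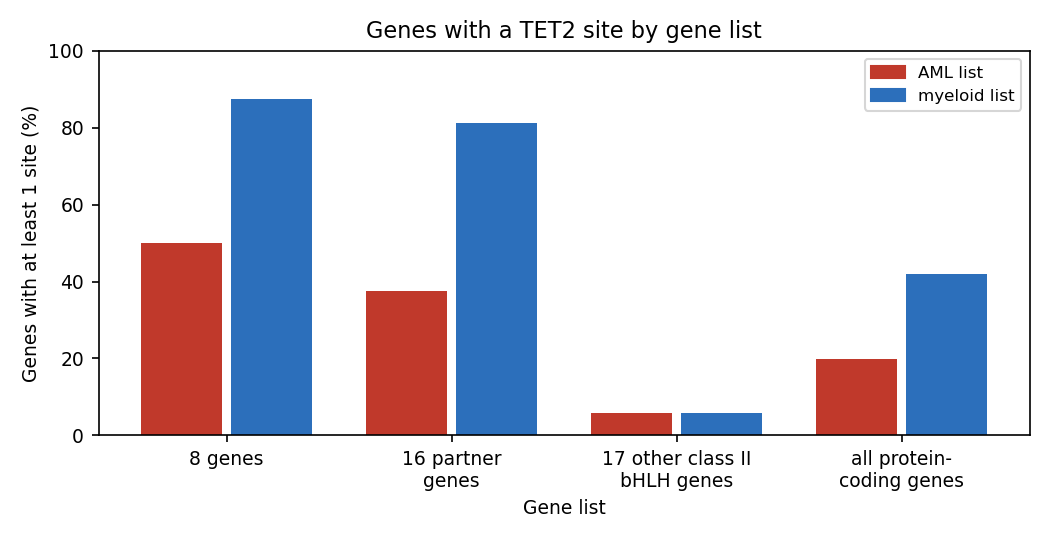
Bars give the share of genes (%) with at least 1 TET2 site, AML list left and myeloid list right, for the 8 genes, their 16 partner genes, 17 other class II helix-loop-helix genes and all protein-coding genes. Tal2, also of class II, is counted with the partner genes. The other class II genes had 5.88% in each list, from 1 gene of 17, beside 19.8% and 42.0% of all genes. Their 1 AML site was within counting error of the number in proportion to territory, and their 1 myeloid site was below it. The 8 genes had 50.0% and 87.5%, but Id1 and Id2 lost their AML sites, and Id2 its myeloid sites, with all annotated genes competing.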

How the data were processed

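The authors deposited 1 list of TET2 sites per cell type, made with Trimmomatic, Bowtie2 and MACS2 on mm10 per the submitters' processing notes. Versions, thresholds and the use of replicates, knockout, IgG and input are each not given in the sources used here. Per the file headers each row is a chromosome, a start and an end, and other values are absent, so positions are uncertain by 1 bp (whether starts count from 0 or 1 is not stated). Sites of 1 list overlapping by at least 1 bp were merged (106 joins for AML cells, 884 for myeloid cells), and 1 AML site on a contig outside the chromosomes was dropped. Genes, starts, strands and promoter windows came from RefSeq tables of GRCm38.p6; 17492 of 21887 protein-coding genes (79.9%) had a start. A site could count for 2 genes. Expected numbers scale all assigned sites by territory. Python 3.11.15, scipy 1.17.1 and statsmodels 0.14.6 were used; the assignment and Fisher's exact test per gene were tested on simulated data. All 8 members are named, as well as, per other gene list, the 4 genes with most sites and the 2 leading ones found in a single cell type. Tal2 is named because it is a class II gene that was placed in the partner list. The members and lists were chosen with earlier results of these data known.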

Additional observations from a re-analysis of the deposited data

How the results depend on the processing

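No merging, both other overlap rules, limits of 20 and 50 kb and a gene-end distance of 0.5 kb kept every total over the 8 genes within 1.5 times its main value. The AML total was 4 sites at 20 kb and at 50 kb, and Id2 then had no AML site. At 20 kb the myeloid total was 15, and Id2 had no myeloid site either, so fewer of the 8 genes had a site. With a limit of 200 kb the AML total was 10 sites, all added ones at Id2. With all annotated genes competing, the AML total was 3 sites, 3 of them shared, and the myeloid total 12, of which 3 were shared. Fewer of the 8 genes then had a site, since Id1 and Id2 had none in the AML list and Id2 none in the myeloid list. Assignment to the nearest transcription start, which gives no value for Tcf4 and Id1, put 2 AML and 8 myeloid sites at gene ends and raised Lyl1 to 12 myeloid sites, and a gene-end distance of 2 kb gave 2 AML sites. Nearest ends alone left Lyl1 with 1 AML site and Tcf4 with 1 myeloid site. The count without sites inside Nfix was added after seeing the data. A stricter site threshold could not be run, since the lists hold no score. No paired analysis was possible because positions are all that the lists hold, with none given by library. Counts of 0 to 5 sites per gene limit every comparison, and the depth behind the lists is unknown.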
